A study of Bos taurus with 9 samples.

Results

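Chemokines are small secreted proteins that direct the movement of cells along gradients, and are grouped by the spacing of their first cysteines into CC, CXC, CX3C and XC families. Fibroblasts and adipose stromal cells are known sources of several of them, with CXCL12 made steadily by stromal cells and CCL2 and CXCL8 made mainly on inflammatory signals that reach the transcription factor NF-kappaB. CXC chemokines with a Glu-Leu-Arg (ELR) motif, such as CXCL8, draw neutrophils, while CCL2 draws monocytes and CCL5 and CCL20 draw lymphocytes. The roles given here for single genes are those known from human and mouse.

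The genes followed were chemokine genes looked up by their symbol in the deposited bovine gene table. Of 10 symbols listed, 7 were found among 21512 rows: CXCL8, CXCL12, CXCL13, CCL2, CCL5, CCL20 and CX3CL1. The other 3 symbols, CXCL2, CXCL3 and CXCL5, do not stand in the symbol column. By NCBI Gene ID, RefSeq gives those 3 names to rows that the table labels CXCL1 or CXCL6. These rows, and the remaining CXCL1 row, which RefSeq calls GRO1, are described beside the 7 genes and are not counted with them.

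Levels of mRNA were read by sequencing in wild-type Bos taurus cells, with 3 samples in each of 3 groups and 9 in all. BEFs (bovine ear fibroblasts, grown from skin of the ear in serum-containing medium) were sampled on day 0. CiADCs-3d and CiADCs-6d (chemically induced adipocytes) were the same kind of fibroblasts after 3 and 6 days in serum-free N2B27 medium with 500 µg/mL VPA, a histone deacetylase inhibitor, 1 µM TTNPB, a retinoic acid receptor agonist, and 10 µM RepSox, an inhibitor of the TGF-beta type I receptor kinase. The 9 samples include no fibroblasts kept without the compounds until day 3 or day 6, so the compounds, the change of medium and the time in culture cannot be told apart. The labels number the samples of a group without saying whether they came from separate animals or inductions, so p-values measure the spread between these samples, which may be technical.

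Expected counts (reads estimated per gene) summed to between 18509244 and 24071580 per sample. FPKM, which divides reads by library size and by a gene length that may differ between samples, is used for levels. Tests used edgeR's quasi-likelihood method on counts of 14020 genes, with Benjamini-Hochberg adjustment over all of them. A gene was called at an adjusted p under 0.05 with a log2 fold change of 1 or more in either direction. Of 10 fibroblast markers, such as COL1A1 and VIM, all were detected in every group, and their summed level was 17000 to 17200 FPKM in BEFs, 5980 to 8160 FPKM in CiADCs-3d and 4010 to 5110 FPKM in CiADCs-6d. The 8 adipocyte markers were mixed, with 3 called higher and 2 lower of 7 rows tested on each day. Over all genes, 18.2% were called higher and 9.94% lower on day 3, and 21.9% higher and 13.4% lower on day 6. The adipocyte markers summed to 21.5 to 25.8 FPKM in BEFs, 16.4 to 30 FPKM in CiADCs-3d and 11 to 12.5 FPKM in CiADCs-6d. ADIPOQ, the adipokine adiponectin, averaged 0.42 FPKM in BEFs, 1.87 FPKM in CiADCs-3d and 1.55 FPKM in CiADCs-6d, whereas FABP4, a fatty acid carrier of mature adipocytes, averaged 17.2, 8.58 and 1.40 FPKM. A second row labelled ADIPOQ was at 0 in every group.

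All 7 chemokine genes were called higher in CiADCs than in BEFs on both days, and in none of them did a CiADCs sample overlap a BEFs sample. How many of all genes tested had no such overlap was not counted, so the lack of overlap has no background here. The lowest of the fold changes was that of CXCL12 on day 6 and the highest with counts in every BEFs sample was that of CXCL8 on day 6. Among all genes tested, 18.2% were called higher and 9.94% lower on day 3, and 21.9% higher and 13.4% lower on day 6. Of the 7 genes, 4 (CCL2, CCL5, CXCL12 and CX3CL1) were above the low-count limit of 0.469 CPM (counts scaled to library size) in all BEFs samples. The other 3 (CXCL8, CXCL13 and CCL20) entered the test through the CiADCs samples, so a higher level there was a condition of their being tested. The median over the 7 genes, on the log2 scale, was 7.42 on day 3 and 6.92 on day 6, or 7.06 and 5.97 with CXCL13 set at its lower bound, beside medians of 0.01 and 0.03 over all genes tested. In bulk samples, more cells that express a gene and more RNA per cell cannot be told apart.

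**Figure D1:**
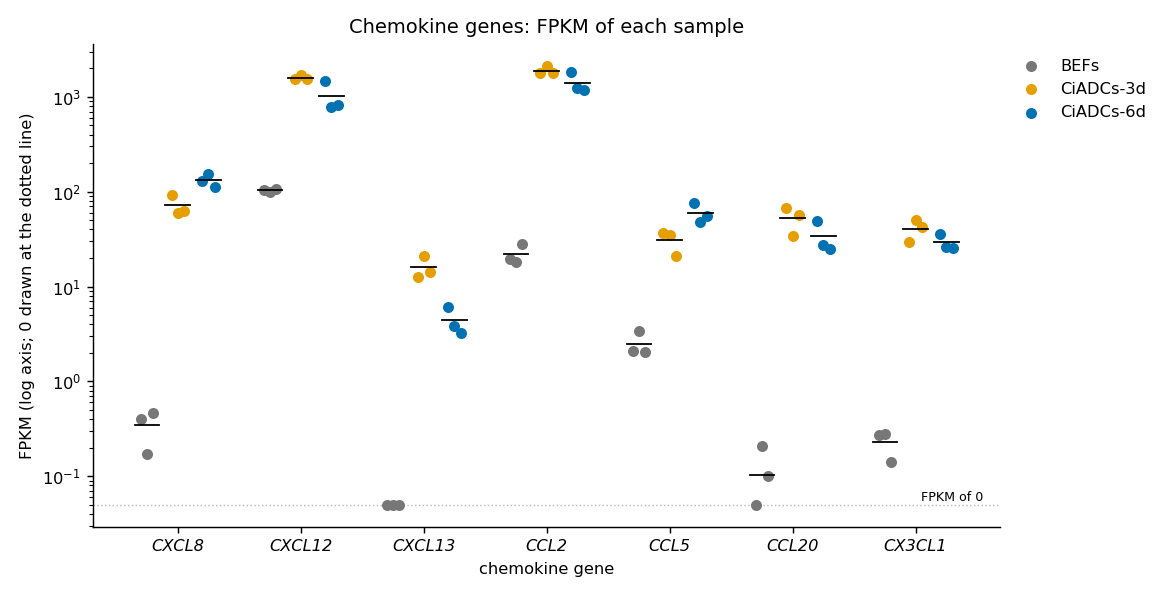
FPKM of each sample (points, log axis) of the 7 chemokine genes in BEFs, CiADCs-3d and CiADCs-6d, with the group mean as a black line and values of 0 drawn at the dotted line. BEFs lie below every CiADCs sample for each gene. CXCL12 and CCL2 stand above the others in every group.

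CXCL8, the main neutrophil attractant of the family, was close to the detection limit in BEFs. Its level was 0.40, 0.17 and 0.47 FPKM in the BEFs samples, 93.5, 59.2 and 62.2 FPKM in CiADCs-3d and 129, 153 and 113 FPKM in CiADCs-6d. Every CiADCs-6d sample was above every CiADCs-3d sample. Relative to BEFs the log2 fold change was 7.66 ± 0.29 on day 3 (SE, adjusted p = 7.18e-10 by edgeR) and 8.53 ± 0.29 on day 6 (adjusted p = 2.87e-10).

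The rows beside CXCL8 in its gene cluster hold the other ELR chemokines. In the RefSeq gene order of ARS-UCD2.0, 1 protein-coding gene lies between CXCL8 and CXCL5 (CXCL6 in the deposited table), followed without another gene between them by PPBP, PF4, CXCL2, CXCL3 and GRO1. The last 3 are the rows under the symbol CXCL1. They are close copies of each other, some of their counts in CiADCs are not whole, and the split of reads between them is uncertain. The row RefSeq names CXCL2 measured 1.23, 1.64 and 4.17 FPKM in BEFs, 227, 140 and 158 FPKM in CiADCs-3d and 325, 340 and 351 FPKM in CiADCs-6d. The row RefSeq names CXCL3 measured 7.39, 6.70 and 12.6 FPKM in BEFs, 242, 227 and 235 FPKM in CiADCs-3d and 289, 210 and 207 FPKM in CiADCs-6d. The row of CXCL5 measured 10.9, 11.5 and 22.1 FPKM in BEFs, 470, 493 and 469 FPKM in CiADCs-3d and 320, 269 and 195 FPKM in CiADCs-6d. In all 3, and in the GRO1 row, BEFs replicate 3 was the highest of the BEFs samples, and no CiADCs sample reached down to it. How many of all genes tested lacked such an overlap was not counted. The GRO1 row had the lowest BEFs values of the 4, at 0.67, 0.42 and 1.68 FPKM, and reached 284, 287 and 250 FPKM in CiADCs-3d and 370, 316 and 316 FPKM in CiADCs-6d. Relative to BEFs, GRO1 stood at a log2 fold change of 8.19 (day 3) and 8.46 (day 6) and CXCL2 at 6.23 and 7.13. CXCL5 stood at 4.99 and 4.10 and CXCL3 at 4.70 and 4.69. All 4 were called higher on both days, beside 18.2% of all genes on day 3 and 21.9% on day 6. GRO1 was not above the low-count limit in all BEFs samples, so a higher level in CiADCs was part of the condition for testing it. Without BEFs replicate 3, GRO1 stood at 8.95 and 9.22 and CXCL2 at 6.98 and 7.88. Of the 2 other genes of the run, PF4, a platelet chemokine, was called higher with a mean of 0.0533 FPKM in BEFs, 2.11 FPKM in CiADCs-3d and 1.64 FPKM in CiADCs-6d. PF4 was under the low-count limit in BEFs and entered the test through the CiADCs samples. PPBP averaged 0.0367 FPKM in CiADCs-6d, was listed at 0 in the other groups and was not tested.

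CXCL12, the stromal chemokine that holds blood progenitors and lymphocytes in their niches, was the gene of the 7 with the highest level in BEFs. It measured 105, 98.9 and 107 FPKM in BEFs, 1552, 1702 and 1526 FPKM in CiADCs-3d and 1455, 775 and 814 FPKM in CiADCs-6d. CiADCs-6d replicate 1 stood close to the CiADCs-3d samples and the other CiADCs-6d samples lay at nearly the same lower level. Relative to BEFs the log2 fold change was 3.67 ± 0.24 on day 3 (SE, adjusted p = 9.29e-08 by edgeR) and 2.73 ± 0.23 on day 6 (adjusted p = 6.89e-07).

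CXCL13, which draws B cells into lymphoid follicles, had no count in any BEFs sample. It reached 12.7, 21.2 and 14.3 FPKM in CiADCs-3d and 6.12, 3.84 and 3.26 FPKM in CiADCs-6d, so each CiADCs-6d sample was below each CiADCs-3d sample. Against 3 counts per BEFs library, the limit that a count of 0 allows, CiADCs-3d were at least 134-fold higher and CiADCs-6d at least 36.1-fold higher. CXCL13 stood apart from its neighbours on the same chromosome stretch: CXCL9 and CXCL11, interferon-induced chemokines that draw T cells, were listed at 0 FPKM in every group, and CXCL10 averaged 0.187 FPKM in BEFs, 0.0767 FPKM in CiADCs-3d and 0.0167 FPKM in CiADCs-6d and was not tested. In gene order, 10 protein-coding genes lie between CXCL11 and CXCL13.

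CCL2, the principal monocyte attractant, measured 19.4, 18.1 and 28.3 FPKM in BEFs, 1785, 2119 and 1772 FPKM in CiADCs-3d and 1827, 1242 and 1170 FPKM in CiADCs-6d. Its mean FPKM had rank 3095 of 21512 rows for BEFs, 21 for CiADCs-3d and 39 for CiADCs-6d. Relative to BEFs the log2 fold change was 6.41 ± 0.24 on day 3 (SE, adjusted p = 7.83e-10 by edgeR) and 5.97 ± 0.24 on day 6 (adjusted p = 1.01e-09).

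CCL5, which draws T cells, monocytes and eosinophils, had the smallest difference from BEFs of the 3 CC genes. It measured 2.07, 3.41 and 2.02 FPKM in BEFs, 37.1, 34.8 and 21.3 FPKM in CiADCs-3d and 76.1, 48.5 and 55.6 FPKM in CiADCs-6d. As for CXCL8, all CiADCs-6d samples were above all CiADCs-3d samples. Relative to BEFs the log2 fold change was 3.60 ± 0.28 on day 3 (SE, adjusted p = 3.6e-07 by edgeR) and 4.54 ± 0.28 on day 6 (adjusted p = 3.86e-08).

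CCL20, which draws CCR6-bearing T cells and dendritic cells, had 0, 3 and 2 counts in the BEFs samples, or 0, 0.21 and 0.10 FPKM. It reached 67.6, 33.9 and 56.9 FPKM in CiADCs-3d and 49.4, 27.2 and 25.0 FPKM in CiADCs-6d. The day 3 and day 6 samples overlapped. With so few counts in BEFs the ratio is loose: summed counts gave a CiADCs-3d level 353 times that of BEFs (95% counting interval 151 to 1090) and a CiADCs-6d level 220 times that of BEFs (93.8 to 678), where the intervals cover counting error only. The edgeR test gave an adjusted p of 7.04e-08 on day 3 and 1.48e-07 on day 6.

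CX3CL1 (fractalkine), a chemokine made as a membrane-bound protein and shed by proteases, measured 0.27, 0.28 and 0.14 FPKM in BEFs, 29.9, 50.2 and 42.2 FPKM in CiADCs-3d and 36.3, 25.9 and 25.5 FPKM in CiADCs-6d. The CiADCs-6d samples lay within or just below the range of CiADCs-3d. Relative to BEFs the log2 fold change was 7.42 ± 0.30 on day 3 (SE, adjusted p = 1.28e-09 by edgeR) and 6.92 ± 0.29 on day 6 (adjusted p = 1.63e-09).

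**Figure D2:**
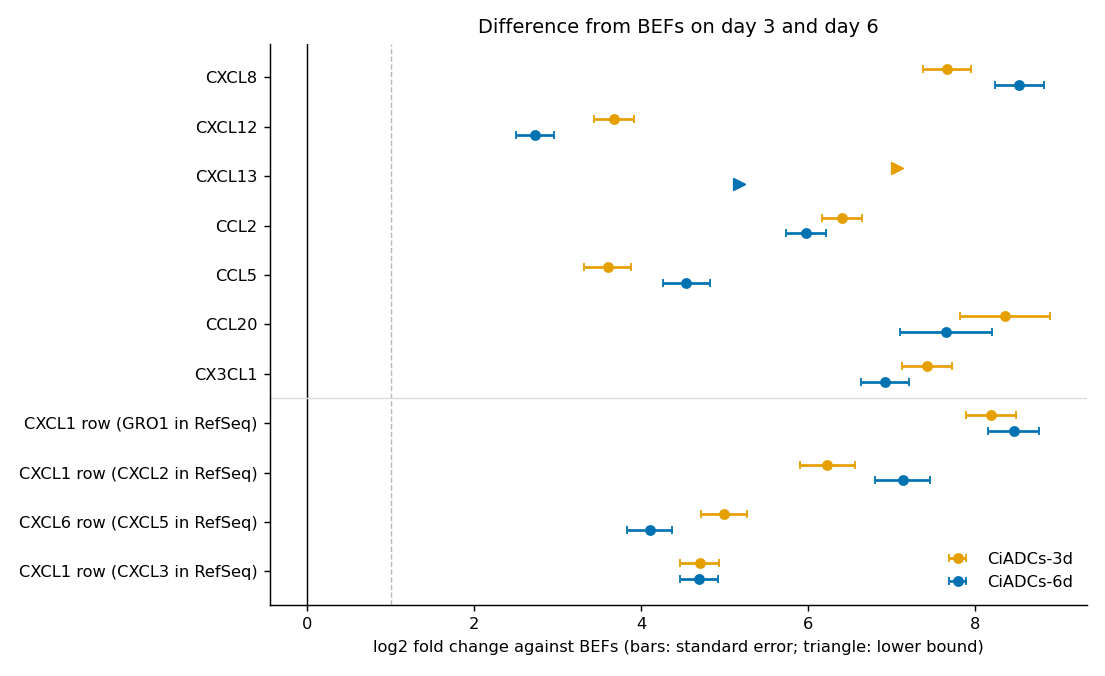
Log2 fold change against BEFs (x axis) on day 3 and day 6 for the 7 chemokine genes (upper rows) and the rows labelled CXCL1 and CXCL6 (lower rows), with the standard error as bars and the dashed line at the fold threshold of 1. CXCL13, without counts in BEFs, is drawn as a lower bound (triangles at 7.06 and 5.17), and CXCL12 and CCL5 lie nearest to 0 among the 7 genes.

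The order of the 7 genes by FPKM, a level per length, changed between BEFs and CiADCs. In BEFs the order by mean was CXCL12 (104 FPKM), CCL2 (21.9), CCL5 (2.50), CXCL8 (0.347), CX3CL1 (0.23), CCL20 (0.103) and CXCL13 (0). The ranges of CXCL8, CX3CL1, CCL20 and CXCL13 overlapped from each to the next, and CXCL8 was below CCL5 in every sample. In CiADCs-3d the order was CCL2 (1892 FPKM), CXCL12 (1593), CXCL8 (71.6), CCL20 (52.8), CX3CL1 (40.7), CCL5 (31.1) and CXCL13 (16.1). There CCL2 was above CXCL12 in every sample, and the ranges of CXCL8, CCL20, CX3CL1 and CCL5 overlapped from each to the next. In CiADCs-6d the order was CCL2 (1413 FPKM), CXCL12 (1015), CXCL8 (132), CCL5 (60.0), CCL20 (33.9), CX3CL1 (29.2) and CXCL13 (4.41). The ranges of CCL2 and CXCL12 overlapped on that day, as did those of CCL5, CCL20 and CX3CL1 from each to the next. Of 18 neighbouring pairs over the 3 groups, 9 were apart, meaning that their ranges over the samples of the group did not overlap.

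Part of that order rests on the gene length used in FPKM, and for CXCL12 that length differed between samples. BEFs replicate 1 had 5060 counts of CXCL12 and 105 FPKM, at a total count of 21819170. CiADCs-6d replicate 2 had 24174 counts of it and 775 FPKM, at a total count of 21225811. The differences of CXCL12 from BEFs are therefore unlike in size by FPKM and by counts. By CPM, which does not divide by length, CXCL12 stood above CCL2 in every group, at mean levels of 228 CPM against 17.1 CPM in BEFs, 2909 CPM against 1458 CPM in CiADCs-3d, and 1511 CPM against 1074 CPM in CiADCs-6d. The samples of CXCL12 and CCL2 were apart in BEFs and CiADCs-3d and overlapped in CiADCs-6d. Between the FPKM and CPM orders the rank differed for 2 of the 7 genes among BEFs and for 5 of the 7 on each induction day, and 12 of the 18 neighbouring pairs were apart by CPM.

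CCL2 and CXCL12 made up most of the summed FPKM throughout, with CXCL12 the larger of the pair in BEFs and CCL2 the larger in CiADCs on that scale. The 7 genes summed to 121 to 138 FPKM in BEFs, 3495 to 4021 FPKM in CiADCs-3d and 2207 to 3580 FPKM in CiADCs-6d. The mean share of CXCL12 in that sum was 80.6% for BEFs, 43.1% for CiADCs-3d and 37.2% for CiADCs-6d, while CCL2 accounted for 16.9%, 51.1% and 52.9%. Within samples, the ratio of CCL2 to CXCL12 FPKM was 0.184, 0.183 and 0.264 for the BEFs samples, 1.15, 1.25 and 1.16 for CiADCs-3d and 1.26, 1.60 and 1.44 for CiADCs-6d. The ratio of their counts, which uses no gene length, was 0.0644, 0.0625 and 0.0988 for the BEFs samples, 0.502, 0.528 and 0.472 for CiADCs-3d and 0.611, 0.840 and 0.785 for CiADCs-6d. Both ratios were free of library scaling and kept the 3 groups apart, but the count ratio stayed under 1 in every sample, so which gene was the more abundant in CiADCs depended on the scale. The share of CXCL8 averaged 0.265% for BEFs, 1.95% for CiADCs-3d and 5.15% for CiADCs-6d, and that of CCL5 averaged 1.97%, 0.838% and 2.26%.

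**Figure D3:**
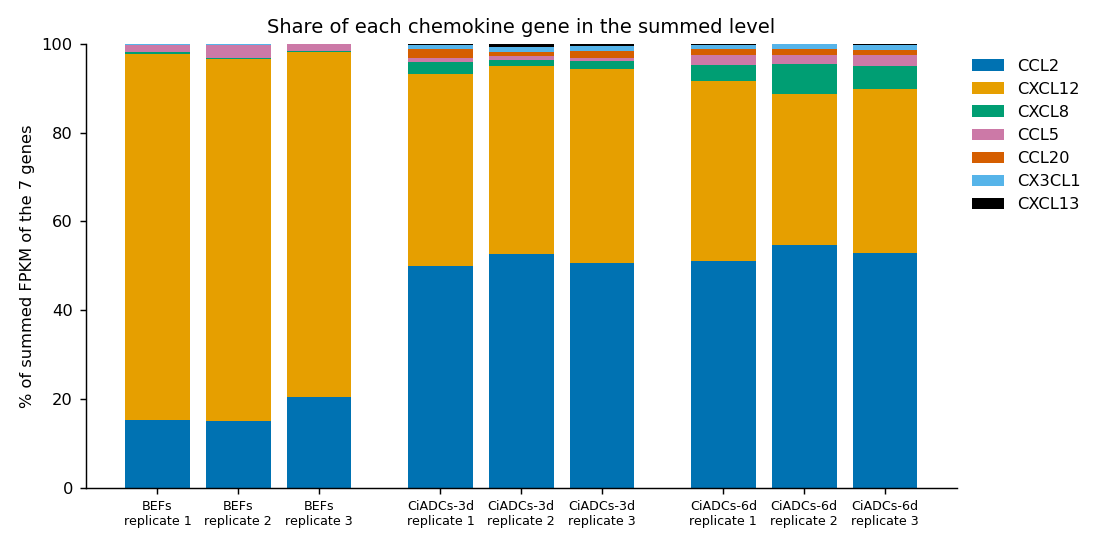
Share of each chemokine gene in the summed FPKM of the 7 genes (stacked bars, in %) in each of the 9 samples. CXCL12 fills most of each BEFs bar, with a mean of 80.6%, whereas CCL2 has the largest share by FPKM in every CiADCs sample.

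Replicates of a group did not vary alike. The coefficient of variation of FPKM was 5.97% for CXCL12 and 10.4% for CCL2 in CiADCs-3d, and between 25.1% and 32.6% for the other 5 genes. In CiADCs-6d it was 37.7% for CXCL12 and 15.2% for CXCL8. CiADCs-6d replicate 1 held the highest value of that group for 6 of the 7 genes, all but CXCL8. In CiADCs-3d, replicate 2 was highest for 4 genes and replicate 1 for 3.

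Between the induction days the differences were small beside those from BEFs, and went in both directions. CXCL13 was the gene called, lower in CiADCs-6d than in CiADCs-3d with a log2 fold change of -1.88 ± 0.27 (SE, adjusted p = 0.00126 by edgeR). This was 1 of 7 genes lower and 0 of 7 higher, beside 3.22% of all genes called lower and 4.09% called higher, and DESeq2 likewise called CXCL13 and no other of the 7. By the adjusted p alone, with no fold threshold, 4 of the 7 genes passed, 2 in each direction, beside 14.4% of all genes higher and 13.6% lower. Those were CXCL8 (log2 fold change 0.86, adjusted p = 0.00518) and CCL5 (0.94, adjusted p = 0.0103) on the higher side, and CXCL12 (-0.95, adjusted p = 0.00903) and CXCL13 on the lower side. CCL2 (-0.44, adjusted p = 0.101), CCL20 (-0.71, adjusted p = 0.085) and CX3CL1 (-0.50, adjusted p = 0.0769) did not pass either threshold, and their day 3 and day 6 samples overlapped. Among the ELR rows, CXCL2 was at 0.90 (adjusted p = 0.0133), CXCL5 at -0.89 (adjusted p = 0.016), GRO1 at 0.27 (adjusted p = 0.335) and CXCL3 at -0.01 (adjusted p = 0.976), and none reached the fold threshold.

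Which genes passed the fold threshold between the days rested on single samples. Without CiADCs-3d replicate 1, CXCL8 (1.05), CXCL12 (-1.03) and CCL5 (1.03) were also called. Without CiADCs-6d replicate 1, CXCL12 (-1.40) and CCL20 (-1.12) were called besides CXCL13, and CCL5 was called without CiADCs-3d replicate 2 (1.03) or CiADCs-6d replicate 2 (1.06). With the samples numbered 1 of both days left out, CXCL8 (1.05), CXCL12 (-1.46) and CXCL13 (-2.39) were called. Of the ELR rows, CXCL2 was called without CiADCs-3d replicate 1 (1.11) and CXCL5 without CiADCs-6d replicate 1 (-1.10). CXCL13 was called lower in each of the 20 alternatives in which it was tested.

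**Figure D4:**
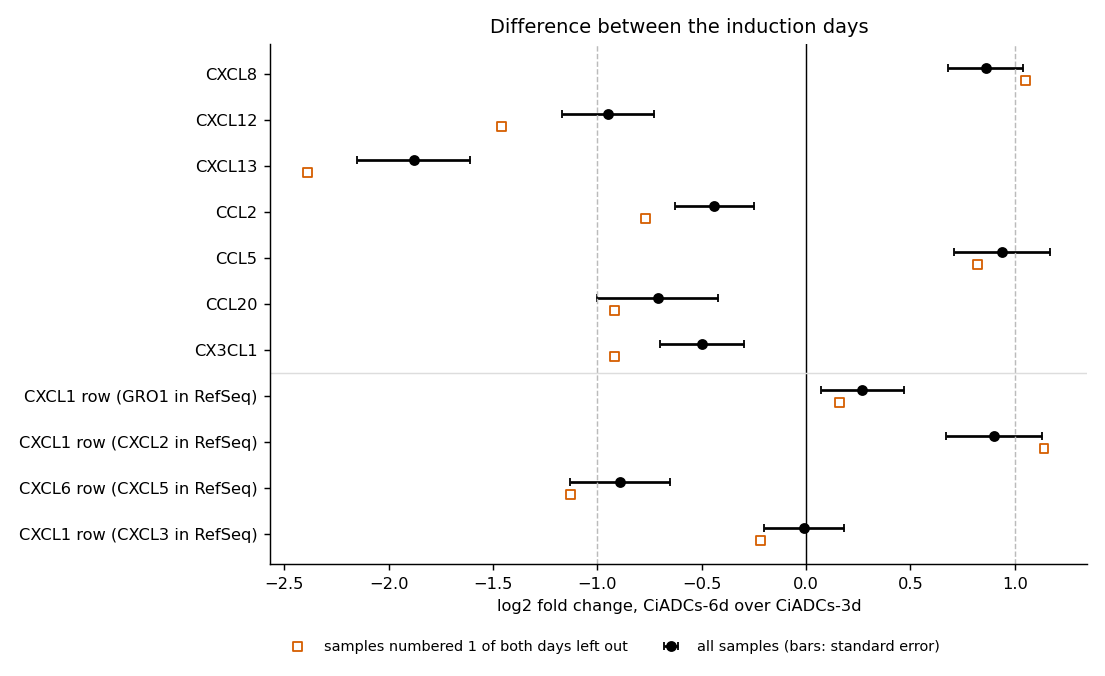
Log2 fold change of CiADCs-6d over CiADCs-3d (x axis) for the 7 chemokine genes (upper rows) and the rows labelled CXCL1 and CXCL6 (lower rows), from all samples (filled points, with the standard error as bars) and with the samples numbered 1 of both days left out (open squares). Dashed lines mark the fold threshold, which CXCL13 alone passes with all samples.

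Other chemokine ligands filled 34 rows, of which 13 were tested. On day 3, 9 were called higher and 1 lower, and on day 6, 10 higher and 1 lower, with a median of the log2 fold changes of 4.99 (day 3) and 4.69 (day 6) (4.70 and 4.10 with CCL11 at its bound). The ELR rows above make up 4 of these 13, and over all genes 18.2% were called higher on day 3 and 21.9% on day 6. Of the 13, 6 were not above the low-count limit in all BEFs samples and entered the test with the help of CiADCs reads, and these were 5 of the 9 called higher on day 3 and 6 of the 10 on day 6. CCL11 (eotaxin), with no count in BEFs, was at least 17.9-fold higher in CiADCs-3d and at least 11.6-fold higher in CiADCs-6d. CXCL14, a chemokine of healthy skin, averaged 0.237 FPKM in BEFs, 17.3 FPKM in CiADCs-3d and 14.1 FPKM in CiADCs-6d, with fold changes on the log2 scale of 6.13 (day 3) and 5.83 (day 6). CXCL16, named after its values were seen, was more abundant, at 24.8 FPKM in BEFs, 234 FPKM in CiADCs-3d and 281 FPKM in CiADCs-6d. It was called higher on both days, at 3.22 and 3.46. The gene lower on both days was CCL17, a ligand of CCR4 singled out after its values were seen, with 1.45 FPKM in BEFs, 0.40 FPKM in CiADCs-3d and 0.243 FPKM in CiADCs-6d. The 21 rows that were not tested include CCL3, CCL4, CCL8 and CCL21, listed at 0 in every group.

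Receptors for these ligands, which sit mainly on leukocytes, were sparse. Of 19 receptor rows 7 were tested. On day 3, 3 were called higher and 1 lower, and on day 6, 3 higher and 0 lower, with a median log2 fold change of 0.70 and 0.17, beside 18.2% and 21.9% of all genes higher and 9.94% and 13.4% lower. The 3 called higher on each day, CX3CR1, CCR8 and a CCR1 row, were all under the low-count limit in at least 1 BEFs sample, so a higher level in CiADCs was part of the condition for testing them. The receptors of single ligands are given here by their pairing, chosen after their values were seen except for CX3CR1 and CXCR4. CX3CR1, the receptor of CX3CL1, measured 0.07, 0.02 and 0.06 FPKM in BEFs, 1.04, 2.19 and 1.67 FPKM in CiADCs-3d and 3.20, 2.69 and 2.11 FPKM in CiADCs-6d. It was called higher on both days, at 4.89 on the log2 scale on day 3 and 5.60 on day 6. Its level in CiADCs stayed under that of its ligand in every sample.

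CXCR4, the signalling receptor of CXCL12, went the other way on day 3. It measured 1.07, 1.14 and 1.04 FPKM in BEFs, 0.39, 0.35 and 0.43 FPKM in CiADCs-3d and 1.20, 0.54 and 0.80 FPKM in CiADCs-6d. CiADCs-3d were lower than BEFs at a log2 fold change of -1.49 (adjusted p = 0.00268 by edgeR), and CiADCs-6d were at -0.39 (adjusted p = 0.297), with 1 of their samples above all BEFs. ACKR3, the atypical receptor that binds and removes CXCL12, was abundant instead. It measured 197, 193 and 224 FPKM in BEFs, 737, 955 and 831 FPKM in CiADCs-3d and 965, 809 and 980 FPKM in CiADCs-6d, which is 2.02 on the log2 scale against BEFs on day 3 (adjusted p = 9.5e-08) and 2.13 on day 6 (adjusted p = 4.78e-08). Among the genes tested on the CXCL12 axis, ligand and scavenging receptor were called higher on both days and the signalling receptor lower on day 3.

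Other receptors of these ligands were at or near 0. CCR2, the receptor of CCL2, had 0 counts in each BEFs sample, 0, 0 and 4 in CiADCs-3d and 2, 1 and 0 in CiADCs-6d. CCR6, the receptor of CCL20, had no count in BEFs, 3, 0 and 0 in CiADCs-3d and 2, 8 and 1 in CiADCs-6d. Neither was tested. The 2 rows labelled CXCR2, which RefSeq names CXCR1 and CXCR2, are receptors of ELR chemokines and held at most 7 counts in any sample. CXCR5, the receptor of CXCL13, held at most 5. The 2 rows labelled CCR1, which binds CCL5, had no count in BEFs, and 1 of them was at least 6.06-fold higher in CiADCs-3d and at least 6.30-fold higher in CiADCs-6d, at means of 0.283 and 0.307 FPKM. CCR8, a receptor of CCL1 on T cells, averaged 0.432 CPM in BEFs, 4.67 CPM in CiADCs-3d and 8.65 CPM in CiADCs-6d, at 3.43 (day 3) and 4.32 (day 6) on the log2 scale, although CCL1 itself was listed at 0. Of 6 atypical receptors tested, 3 were called higher on day 3 and 4 on day 6, beside 18.2% and 21.9% of all genes, with 0 lower on either day. Of those called, 2 on day 3 and 3 on day 6 were not above the low-count limit in all BEFs samples. Among them was CCRL2, a receptor that presents chemerin, at 0.08 FPKM in BEFs, 3.09 FPKM in CiADCs-3d and 2.89 FPKM in CiADCs-6d.

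Proteases that cut chemokines or shed them were split. Of 10 tested, 6 were called higher and 2 lower on day 3, and 4 higher and 4 lower on day 6, with a median log2 fold change of 1.11 and 0.52, beside 18.2% higher and 9.94% lower over all genes on day 3 and 21.9% and 13.4% on day 6. DPP4, which removes the first residues of CXCL12 and CCL5 and so inactivates CXCL12, averaged 0.493 FPKM in BEFs, 0.417 FPKM in CiADCs-3d and 0.0133 FPKM in CiADCs-6d. It was lower in CiADCs-6d than in BEFs at a log2 fold change of -4.81 (adjusted p = 4.77e-05 by edgeR) and stood at -0.31 on day 3 (adjusted p = 0.543). MMP9, a gelatinase, was lower on both days, at -1.56 and -3.13. The 2 rows labelled MMP1, a collagenase that also trims CXCL12, were higher on both days, at 2.26 and 4.55 for one row and 2.05 and 3.98 for the other, and may share reads. MMP2 and MMP14, named after their values were seen, were more abundant. MMP2 averaged 773 FPKM in BEFs, 1599 FPKM in CiADCs-3d and 2682 FPKM in CiADCs-6d and was called higher on both days (1.03 and 1.76). MMP14, at 257, 137 and 116 FPKM, was called lower on day 6 (-1.19). ADAM10 and ADAM17, the sheddases of CX3CL1, were named after their values were seen. ADAM10 averaged 17.3 FPKM in BEFs, 76.2 FPKM in CiADCs-3d and 48.8 FPKM in CiADCs-6d and was called higher on both days, whereas ADAM17, at 21.4, 49.5 and 42.3 FPKM, was called on day 3 (1.20) and stayed under the fold threshold on day 6 (0.95).

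Genes of the NF-kappaB pathway, which drives many of these chemokines, were also measured. Of 16 tested, 10 were called higher on day 3 and 12 on day 6, with 0 lower, beside 18.2% and 21.9% of all genes higher, and the median log2 fold change was 1.39 and 1.56. Members with the largest changes act in both directions on the pathway. NFKBIA, TNFAIP3 and TNIP1 encode inhibitors and are themselves targets of NF-kappaB, and REL is a subunit of it. NFKBIA averaged 11.8 CPM in BEFs, 126 CPM in CiADCs-3d and 224 CPM in CiADCs-6d, and TNFAIP3 averaged 5.24, 91.7 and 90.2 CPM. The log2 fold change of TNIP1 was 3.78 on day 3 and 3.62 on day 6. REL averaged 0.729 CPM in BEFs, 3.41 CPM in CiADCs-3d and 11.2 CPM in CiADCs-6d, at 2.22 and 3.94.

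Of 17 genes tested for inducing cytokines, their receptors and adaptors, 6 were higher and 0 lower on each day, with a median log2 fold change of 0.26 and 0.20, beside 18.2% and 21.9% of all genes higher. IL1A and IL1B entered the test through the CiADCs samples, so a higher level there was a condition of their being tested. IL1A, an alarm cytokine of the interleukin-1 family, averaged 0.12 CPM in BEFs, 24.5 CPM in CiADCs-3d and 44.4 CPM in CiADCs-6d, at 7.63 on day 3 and 8.49 on day 6. IL1B, with no count in BEFs, was at least 9.86-fold higher in CiADCs-3d and at least 10.4-fold higher in CiADCs-6d, at means of 1.31 and 1.37 CPM. IL6 was at 4.25 (day 3) and 3.57 (day 6), and at 3.48 on day 3 without CiADCs-3d replicate 1, whose 143 FPKM stood above the 34.9 and 52.0 FPKM of the other CiADCs-3d samples. TLR2, a receptor for bacterial lipoproteins, stood at 5.43 and 5.19. Regulators of the decay of short-lived mRNAs such as those of chemokines were mostly not called: of 9 tested, 3 were higher on each day and 0 lower, with a median of 0.21 and -0.10, beside the same 18.2% and 21.9%. Those called all promote decay, ZFP36 and ZFP36L1 by binding AU-rich elements and ZC3H12A as an endonuclease that cuts stem-loops. ZC3H12A stood at 3.42 on day 3 and 3.64 on day 6, ZFP36 at 1.73 and 3.12 and ZFP36L1 at 2.19 and 2.07.

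**Figure D5:**
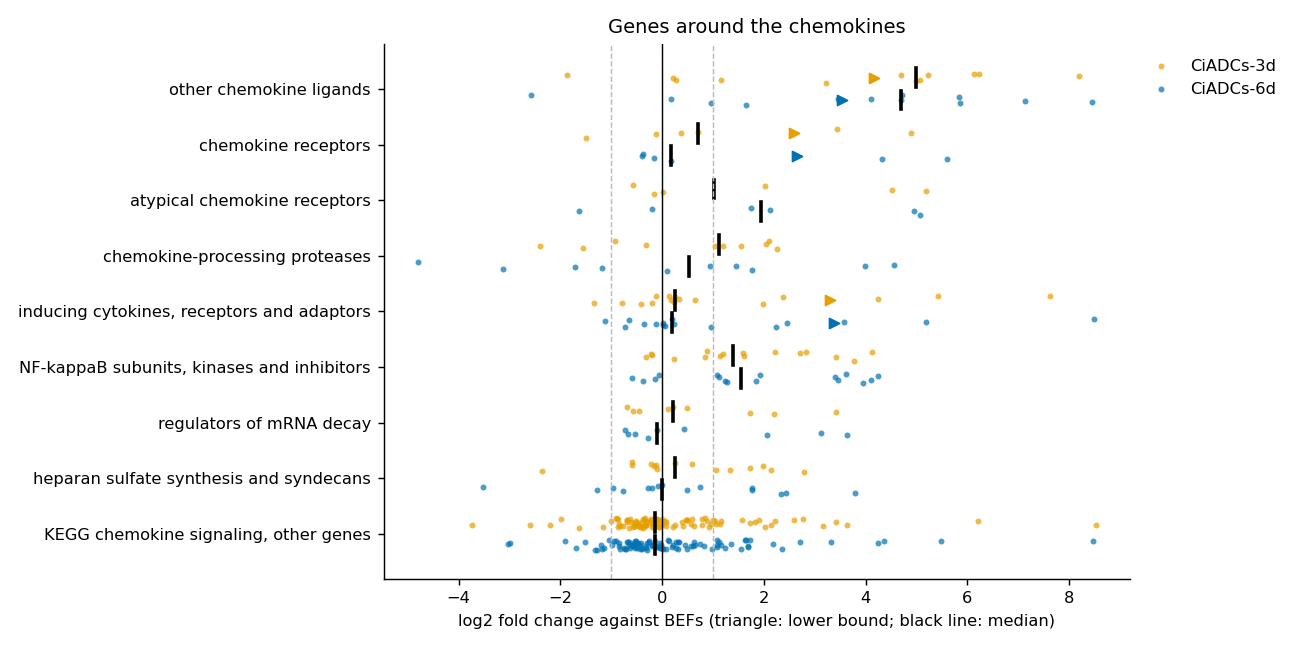
Log2 fold change against BEFs on day 3 and day 6 for the tested genes of each list (points), with the list's median as a black line, genes without a count in BEFs as lower bounds (triangles) and dashed lines at the fold threshold. Points of the other chemokine ligands lie mostly to the right, whereas the other genes of the KEGG chemokine pathway are centred near 0, at a median of -0.14.

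Heparan sulfate chains hold chemokines on the cell surface and in matrix. Of 15 genes for its synthesis and for syndecans, its carrier proteins, 6 were called higher and 1 lower on day 3, and 5 higher and 2 lower on day 6, with a median log2 fold change of 0.25 and 0, beside 18.2% and 9.94% of all genes on day 3 and 21.9% and 13.4% on day 6. SULF1, which removes sulfate groups, had log2 fold changes of 2.78 (day 3) and 2.33 (day 6), and the sulfotransferase HS3ST1 had 2.15 and 3.80. HS3ST1, with 5, 9 and 23 counts in the BEFs samples, was not above the low-count limit in all of them. Of the carriers, SDC4 was higher, at 1.99 and 2.44, and SDC3 lower, at -2.36 and -3.52. Genes of the KEGG chemokine signalling pathway that are on neither the ligand nor the receptor lists were near the background. They were mostly kinases and G protein subunits downstream of the receptors. Some, such as NFKBIA, NFKB1 and RELA, were also counted among the NF-kappaB genes above. Of 100 tested, 17 were higher and 7 lower on day 3, beside 18.2% and 9.94% of all genes, and 21 were higher and 10 lower on day 6, beside 21.9% and 13.4%. Of the genes of this list called higher, 4 on day 3 and 5 on day 6 were not above the low-count limit in all BEFs samples. Those with the largest changes were NCF1, a subunit of the phagocyte oxidase (8.53 on day 3 and 8.48 on day 6), and VAV3, a guanine nucleotide exchange factor (6.22 and 5.48), with RASGRP2 and NFKBIA also among the first 4. NCF1 had 0, 0 and 2 counts in the BEFs samples, so its fold changes are loosely bounded.

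Markers of other cell types that could make chemokines were measured in the same samples. The summed level of the 8 myeloid markers found in the table was 0.83 to 1.13 FPKM in BEFs, 26.5 to 28.2 FPKM in CiADCs-3d and 39.7 to 50.1 FPKM in CiADCs-6d, most of it from CD14, which averaged 0.44, 23.9 and 38.2 FPKM. Of these markers, PTPRC (CD45), carried by all leukocytes, and C1QA, of macrophages, had 0 counts in all 9 samples, and CSF1R averaged 0.03 FPKM in BEFs, 0.12 FPKM in CiADCs-3d and 0.287 FPKM in CiADCs-6d. CD68, a lysosomal protein of macrophages, averaged 0.457, 2.98 and 5.12 FPKM, with log2 fold changes of 2.68 (day 3) and 3.43 (day 6). All 3 myeloid markers tested were called higher on both days, beside 18.2% of all genes on day 3 and 21.9% on day 6. None of the 3 was above the low-count limit in all BEFs samples, so a higher level in CiADCs was part of the condition for testing them. The 5 endothelial markers summed to 2.29 to 3.38 FPKM in BEFs, 36.6 to 52.3 FPKM in CiADCs-3d and 23.5 to 37.4 FPKM in CiADCs-6d. Most of that came from VWF, which averaged 0.86, 41.2 and 27.8 FPKM, whereas PECAM1 averaged 1.29, 0.89 and 0.833 FPKM and CDH5 stood at 0.137, 0.00333 and 0.02 FPKM. TEK averaged 0.473, 1.01 and 0.767 FPKM and KDR 0.00333, 0.15 and 0.0133 FPKM. Of 3 endothelial markers tested, VWF and TEK (1.08 on the log2 scale) were called higher on day 3 and VWF on day 6, beside the same shares of all genes. The part of such cells in the chemokine levels was not tested. The 6 lymphocyte markers summed to at most 0.71 FPKM in any sample, with CD2, MS4A1 and NKG7 at 0 throughout. The 7 keratinocyte markers summed to 25.7 to 36.2 FPKM in BEFs, 37.6 to 48.0 FPKM in CiADCs-3d and 40.2 to 45.1 FPKM in CiADCs-6d, and the 7 melanocyte and Schwann cell markers to 32.9 to 36.2, 39.5 to 42.1 and 28.5 to 39.2 FPKM, with MLANA, TYR and DCT at 0 throughout.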

How the data were processed

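The deposited table gave expected counts and FPKM per gene for 9 samples. Expected counts, as deposited by the authors, are estimated reads per gene, not normalized, and 5.48% of them were not whole. FPKM, also as deposited, are corrected by the authors for the length of the gene and the size of the library. Tools listed in the submitters' processing notes are RSEM, StringTie 1.3.1, HISAT2 2.2.4 and fastp 0.18.0, with no role given, the study's methods name TopHat and HTSeq instead, and the genome build is not given in the sources used here. The labels name a ribosomal RNA removal kit and the study's methods oligo(dT) beads for eukaryotic mRNA.

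Counts were rounded. Genes were kept by filterByExpr (minimum count 10, minimum total 15), which left 14020 and removed 7492, and TMM scaling was applied. All 9 samples entered 1 quasi-likelihood fit (edgeR 4.0.16 in R 4.3.3) with group as its factor, and p-values were adjusted by Benjamini-Hochberg over all genes tested. The standard error of a log2 fold change was taken as its size over the root of the F statistic. Genes without a count in BEFs were set against 3 counts per library, and ratios from few counts have an exact 95% counting interval (confidence level 0.95). The script was tested on simulated counts.

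The genes and the 9 pathway and 7 marker lists were chosen with earlier results of these data known. Of each pathway list, up to 4 genes with the largest change among those called against BEFs were named, given a mean of 1 CPM or more where the gene is higher. Row names were looked up in RefSeq (ARS-UCD2.0) by Gene ID, where 20582 of 21039 IDs matched. Sequences of the genes were not used here. Alternatives were DESeq2 1.42.0, other scalings and filters, limma 3.58.1 on log2(FPKM + 1) or log2(FPKM + 0.1), other thresholds, a replicate block, 2 groups alone and samples left out. Figures were drawn with matplotlib 3.10.9.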

Additional observations from a re-analysis of the deposited data

Results flagged for a closer look

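CXCL13 differed between the induction days by the direct test, at a log2 fold change of -1.88 for CiADCs-6d against CiADCs-3d. Its mean was 4.80 CPM in CiADCs-6d and 17.8 CPM in CiADCs-3d, with each of the 3 CiADCs-6d samples below each of the 3 CiADCs-3d samples. Over the 20 alternatives that tested it, the value ran from -2.39 to -1.63 and the adjusted p from 4.63e-09 to 0.00991.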

How the results depend on the processing

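Against BEFs, all 7 genes were called higher on both days under every alternative but one. With at least 10 counts required in every sample, 4 genes were called on day 3, 4 on day 6 and 0 between the days, because CXCL8, CXCL13 and CCL20 were then not tested. Between CiADCs-6d and CiADCs-3d, where 1 gene was called, the count was 2 with a replicate block, 3 with the samples numbered 1 of both days left out, 4 by the adjusted p alone, and 1 to 4 with single samples left out. The block added CXCL12 (-1.01). Sample numbers were not treated as pairs, since deviations of same-numbered samples correlated at -0.372 to 0.145 and 1 of 9 pairs exceeded 0.1. Differently numbered samples of different groups correlated at -0.141 to 0.279, and 4 of 18 pairs exceeded 0.1. The fold change of the CXCL3 row between the days, close to 0, turned to 0.01 with total-count scaling and ran from -0.22 to 0.05 with single samples left out. That of DPP4 on day 3 turned to 0.06 with the samples numbered 1 left out and ran from -0.55 to 0.06 with single samples left out. On log2(FPKM + 1) the changes of low genes are compressed, and CXCR4 on day 3 stood at -0.58, under the fold threshold. The cause of the other changes was not tested. With 3 samples a group, and counts under 10 in BEFs for CCL20, the fold changes of genes scarce in BEFs are loosely bounded.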

Other observations

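Some genes followed nearly the same course over the 9 samples as CCL2, CXCL12 and CXCL8, the most abundant of the chemokine genes found by symbol. Of 9905 genes compared by Pearson's r of log2 CPM, those closest to CCL2 were CD9, a tetraspanin (r = 0.999), APOL3, of the apolipoprotein L family (0.998), and CA13, a carbonic anhydrase (0.998). Those closest to CXCL12 were HGSNAT, a lysosomal acetyltransferase of heparan sulfate breakdown (0.997), SLC29A1, a nucleoside transporter (0.996), and AOX1, an aldehyde oxidase (0.996). Those closest to CXCL8 were BTN2A1 (0.998), SUSD6 (0.998) and TNFRSF9, a receptor of the TNF family (0.997). Such values are common here, since the samples fall into 3 groups that differ in many genes: 925 genes reached an r over 0.95 with CCL2, 466 with CXCL12 and 1009 with CXCL8. AOX1 averaged 15.4 CPM in BEFs, 659 CPM in CiADCs-3d and 300 CPM in CiADCs-6d, and TNFRSF9 averaged 0.0296, 55.1 and 113 CPM.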
